A study of Mus musculus with 183 samples.

Results

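The transcripts described here are 33 mouse mRNAs whose proteins act between G2 phase and the end of cell division. They were taken by gene symbol from a list of mitosis and kinetochore genes, and all 33 were found among the 53380 genes of the half-life count table and among the 7240 mRNAs of the binding table. The study asked which mRNAs the cytoplasmic 3′–5′ helicase SKIV2L and its partner AVEN act on in mouse embryonic stem cells. For the half-life measurements, transcription was blocked with actinomycin D for 120, 240 or 360 min, and mock libraries came from cells given DMSO for 6 h. Each combination of clone, day and time had 3 libraries and clone 5F at day 0 and 120 min had 2, for a total of 47. Ribosomal RNA was removed, ERCC spike-in RNAs were added, and reads were counted per gene. Binding was measured by CRAC, in which UV light crosslinks a tagged protein to RNA and the bound fragments are sequenced. The binding values, and the mRNA levels given with them, came from other cell lines than the half-life libraries. Each of those lines carried a tag on the endogenous gene of a bound protein. The study lists them without a floxed Skiv2l allele.

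Both clones of the half-life libraries carried a Cre-ERT2 gene in the Rosa26 locus and grew in serum plus LIF. Clone 5F was Rosa26Cre-ERT2/- with Skiv2l fl/fl and intact Aven. Clone 7E was Aven-/- and carried on its other Rosa26 allele a construct that the labels spell BirA-V6 and the study's list of cell lines BirA-V5. Its labels give Skiv2l as 3xFLAG-Avi/3xFLAG-Avi without the floxed allele, which that list includes. Day 0 cells had no 4-hydroxytamoxifen (4OHT), the drug that activates Cre-ERT2, and day 4 cells had 0.1 µM 4OHT for 4 days. For the tagged lines used for binding, the labels list no 4OHT. Each genotype was 1 clone, so genotype and clone cannot be told apart, and no group without a Cre gene was given 4OHT, so the drug and the deletion cannot be told apart either. The study calls its replicates technical, so p-values measure the spread between libraries of a clone.

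Cyclin-dependent kinase 1 bound to A- and B-type cyclins drives entry into mitosis, and Aurora and Polo kinases build the spindle. Kinetochores join chromosomes to spindle microtubules through the NDC80 and SKA complexes. The spindle checkpoint kinases and BUBR1 hold back CDC20, the activator of the anaphase-promoting complex (APC/C), until every chromosome is attached, and cytokinesis then divides the cell. Many of these genes are transcribed in G2 through a promoter element, the cell cycle genes homology region, bound by the DREAM and MYBL2 complexes. Embryonic stem cells have short G1 phases and divide fast, so a large share of a culture is in S or G2 phase. In RNA from whole cultures, fewer cells in G2 or mitosis and less of an mRNA per cell cannot be told apart.

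Total counts per library were 24540658 to 34208466, and single members had between 567 and 55823 raw counts per library. In the mock libraries Skiv2l had 147 to 148 CPM, counts scaled to library size, in 5F at day 0. The 5F libraries labelled day 4 had 132 to 153 CPM, so the whole-gene count did not fall with 4OHT in clone 5F. Per the study, the deletion removes only some exons and leaves a truncated product, and the removed exons were not counted apart. In clone 7E Skiv2l was at 31.2 to 36.1 CPM at day 0 and 12.3 to 13.8 CPM at day 4. Aven was at 32.1 to 36.1 CPM in 5F and 1.30 to 2.99 CPM in 7E. The 8 markers of embryonic stem cells, each detected, summed to 3283 to 3319.6 CPM in 5F mock libraries at day 0 and 3033 to 3127 in those labelled day 4, and in 7E to 3116 to 3218 at day 0 and 2623 to 2701 at day 4. Fibroblast markers, 5 genes of which 2 or 3 were under 1 CPM, summed to 9.22 to 9.52 and 11.4 to 12.3 CPM in 5F and to 3.30 to 3.84 and 10.7 to 11.8 CPM in 7E, in the same order. The 5 markers of primed or differentiating cells went from 73.1 to 74.6 to 62.2 to 65.7 CPM in 5F and from 120.01 to 123 to 82.8 to 97.2 CPM in 7E. The 6 primitive endoderm markers had 127 to 131 and then 98.1 to 102 CPM in 5F, and 13.0 to 13.7 and then 13.1 to 14.0 CPM in 7E. ERCC spike-ins took 0.640 to 0.659% of reads in 7E mock libraries at day 4, against 0.275 to 0.320% in the other mock libraries. The levels below were scaled to the median gene within a time point.

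The members were abundant mRNAs. In RPKM, reads scaled to transcript length and library size, given as the median of 3 tagged lines per gene, the 33 members had a median of 102 against 21.2 over the 7240 mRNAs, and 32 of 33 were above that median. Top2a, the topoisomerase that untangles sister chromatids, was highest at 380.2 RPKM. Birc5, the survivin subunit of the chromosomal passenger complex, had 231 RPKM, and Ube2c, the ubiquitin-conjugating enzyme of the APC/C, had 227 RPKM. At the low end were Cenpe, the kinetochore kinesin, with 51.6 RPKM, Spc24 of the NDC80 complex with 49.5 RPKM, and Ska1 of the SKA complex with 19.6 RPKM. These levels carry no replicate error. The coding part had a median of 1812 bases against 1458 over all mRNAs of that table, and the part after the stop codon 600.0 bases against 993.5.

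Most members shared a short promoter sequence. RefSeq gave a window from 250 bases before to 50 bases after the transcription start (build GRCm38.p6) for 25 of the 33. The core of the cell cycle genes homology region, TTTGAA, was found on either strand in 20 of these 25 genes (80.0%), against 20.2% of 27025 genes with a window. In the last 100 bases of the window it was in 19 of 25 (76.0%) against 5.72% of all. The related TTTAAA, also on either strand, was in 7 of 25 (28.0%) against 14.9%. Among other gene lists, TTTGAA was in 51.7% of 60 further G2/M genes, 13.8% of 29 S-phase genes and 0 of 8 G1 genes. The members hold the best-studied genes with this element, so the share is a description of the list. The 30 bases around the match nearest the start are shown for members of each role except the chromosomal passenger complex. That match, TTTGAA or its reverse complement TTCAAA, is in capitals. The stretch of Anln holds a second match in lower case.
Ccnb2, chr9:70421533-70421562, minus strand: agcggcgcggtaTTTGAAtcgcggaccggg
Cdk1, chr10:69352910-69352939, minus strand: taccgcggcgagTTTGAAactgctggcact
Aurka, chr2:172370521-172370550, minus strand: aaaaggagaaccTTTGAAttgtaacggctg
Plk1, chr7:122159453-122159482, plus strand: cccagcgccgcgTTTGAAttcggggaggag
Bub1b, chr2:118598231-118598260, plus strand: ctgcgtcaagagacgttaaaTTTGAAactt
Ttk, chr9:83834684-83834713, plus strand: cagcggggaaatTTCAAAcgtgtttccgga
Cdc20, chr4:118437344-118437373, minus strand: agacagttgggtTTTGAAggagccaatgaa
Spc25, chr2:69206172-69206201, minus strand: ggcggtggagagTTTGAAattgaaagactg
Ndc80, chr17:71526811-71526840, minus strand: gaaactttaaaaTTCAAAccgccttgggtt
Kif11, chr19:37376351-37376380, plus strand: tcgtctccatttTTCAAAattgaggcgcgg
Kif23, chr9:61946780-61946809, minus strand: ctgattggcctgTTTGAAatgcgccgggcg
Anln, chr9:22389168-22389197, minus strand: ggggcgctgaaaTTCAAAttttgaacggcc
Top2a, chr11:99024195-99024224, minus strand: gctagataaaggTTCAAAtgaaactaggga
In Ccnb2 the match began at base 5 after the start and in Ttk at base 8. In Bub1b it began at base 41. In Cdk1, Cdc20, Kif11 and Top2a it lay before the start, at 15, 18, 19 and 23 bases. The 5 members with a window and no match were Birc5, Bub1, Ccnb1, Cenpe and Nuf2.

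Mitosis mRNAs moved little with 4OHT in clone 5F, and in both directions. At the edgeR threshold of 0.05, adjusted over 16349 genes, 3 of 33 members had higher levels after 4OHT, in the libraries labelled day 4, and 8 had lower levels. Over all genes tested, 12.8% were higher and 11.6% lower. The members' median log2 difference was -0.04 against -0.00 over all genes, and their values ran from -0.40 to 0.21. The mRNAs that were lower encode the cohesin acetyltransferase Esco2, Aurora kinase B, cyclins B1, B2 and A2, and the kinetochore and checkpoint proteins Spc25, Bub1b and Ttk. The 3 that were higher were Cenpe, Plk1 and Mki67. With own spike-in scaling none of these 3 increases was called (edgeR adjusted p = 0.119, 0.216 and 0.312). The call of Plk1 was also lost without replicate 1 or 3, and that of Mki67 without replicate 3 (edgeR adjusted p = 0.117 to 0.132). The whole-gene count of Skiv2l did not fall in these libraries. Among the cell type markers, the fibroblast sum was higher and the other 3 sums lower in the libraries labelled day 4, and their part in the members' differences was not tested.

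In clone 7E, which lacks AVEN and where Skiv2l fell, the split was again in both directions. Of 33 members, 6 were higher at day 4 and 8 were lower, where 20.7% of 16333 genes were higher and 19.4% lower. The median was 0.04 on the log2 scale against -0.01 over all genes, with a range from -0.49 to 0.40. Those higher were Anln, Prc1, Ect2 and Kif23, which act in cytokinesis, and the kinetochore genes Ndc80 and Cenpe. Scaled to each library's own spike-ins, all 33 members were lower at day 4, as the median gene was shifted by -1.11, and so the direction of these 6 holds only relative to the median gene. Those lower were Esco2, Bub1b, Ccnb2, Aurkb, Spc24, Ttk, Spc25 and Ccna2. Day 0 libraries of 7E had 247092 ± 5202 (SD, n = 3) normalised counts summed over the 33 members, and the 4OHT libraries had 251875 ± 8263 (SD, n = 3). With day in 7E the stem cell marker sum went from at least 3116 to at most 2701 CPM, the primed marker sum from at least 120.01 to at most 97.2 CPM and the fibroblast marker sum from at most 3.84 to at least 10.7 CPM, and their part in these differences was not tested.

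Of the 8 members lower in each clone, 7 were lower in both, namely Esco2, Bub1b, Ccnb2, Aurkb, Spc25, Ttk and Ccna2. The calls of Spc25, Ttk and Ccna2 were each lost in both clones without replicate 1 and without replicate 3, with edgeR adjusted p = 0.119 to 0.421 in 5F and 0.0934 to 0.447 in 7E. Over all genes, 64.6% of those lower in 5F were lower in 7E, and 38.9% of those lower in 7E were lower in 5F. Cenpe was higher in both clones, and in 7E its call was lost without replicate 2 (edgeR adjusted p = 0.183). The 2 comparisons share no library. Direct tests of the difference between the clones' changes called 1 member, Anln, as described below. The promoter motif TTTGAA was in 4 of the 4 windows of members lower in 7E and 5 of the 6 windows of members higher, and in 4 of 5 and 2 of 3 of those lower and higher in 5F.

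**Figure D1:**
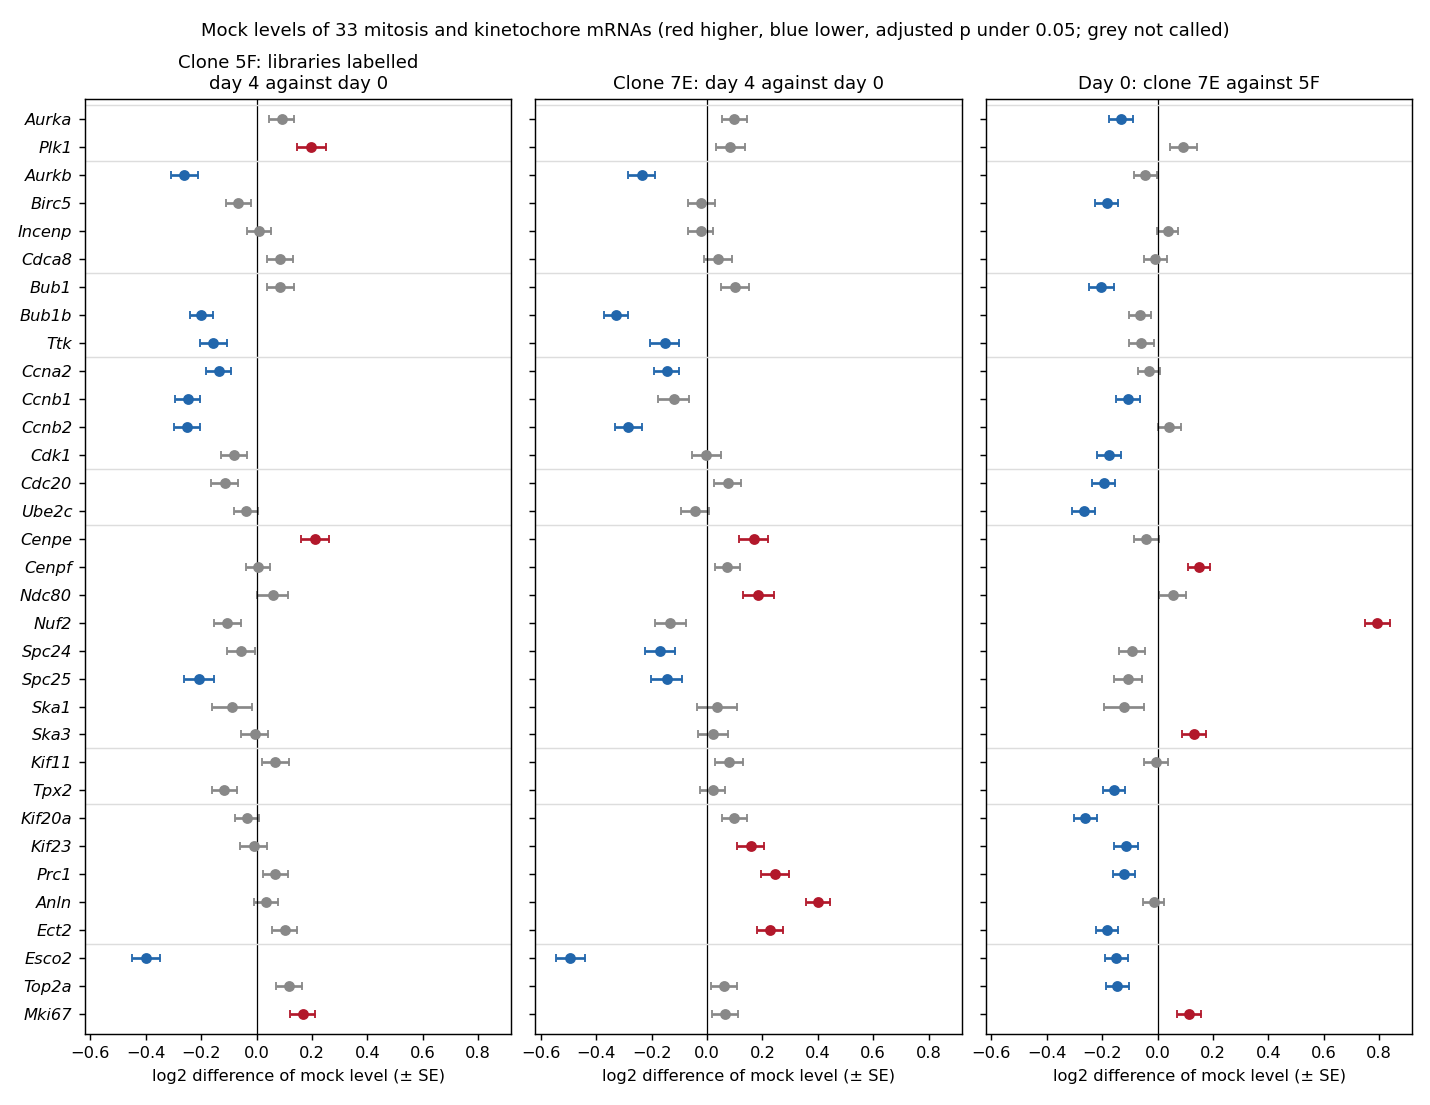
Log2 differences of mock levels with standard errors for the 33 mRNAs, grouped by role, in clone 5F (libraries labelled day 4 against day 0), in clone 7E (day 4 against day 0) and between the clones at day 0. Red points are higher and blue points lower at an edgeR adjusted p under 0.05. Esco2 is the lowest point for both clones (-0.40 and -0.49), Anln the highest for 7E (0.40), and Nuf2 stands apart between clones (0.79). Values are relative to the median gene, and with own spike-in scaling every 7E day 4 member is below day 0.

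Esco2, which acetylates cohesin so that sister chromatids hold together, changed most in both clones. Its normalised counts in 5F were 7719, 7100.4 and 7576 at day 0 and 5621, 6102 and 5255 in the libraries labelled day 4 (log2 difference -0.40, SE 0.05, edgeR adjusted p = 1.02e-05). In 7E they were 6804, 6458 and 6937 at day 0 and 4815, 5113 and 4416 at day 4 (log2 difference -0.49, SE 0.05, edgeR adjusted p = 5.8e-08). Every library with 4OHT lay below every library without it in its own clone.

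Among cyclins and their kinase, Ccnb2, Ccna2 and, in 5F, Ccnb1 were lower, while Cdk1 did not pass the test. Ccnb2, cyclin B2, had 4505, 4335 and 4693 normalised counts in 5F at day 0 and 3865, 3812 and 3692 in the libraries labelled day 4 (log2 difference -0.25, SE 0.05, edgeR adjusted p = 0.000415). Clone 7E had 4581, 4579 and 4767 and then 3768, 3989 and 3678 (log2 difference -0.28, SE 0.05, edgeR adjusted p = 4.59e-05). The day 0 and 4OHT libraries did not overlap in either clone.

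Ccnb1, the cyclin whose destruction lets cells leave mitosis, had 6163, 5720.4 and 6067 in 5F at day 0 and 4906, 5232 and 4968 in the libraries labelled day 4, without overlap (log2 difference -0.25, SE 0.05, edgeR adjusted p = 0.000462). In 7E its counts were 5493, 5415 and 5763 and 5181, 5545 and 4605, which overlapped (log2 difference -0.12, SE 0.06, edgeR adjusted p = 0.0896). The difference between the 2 changes was not called (log2 difference 0.13, SE 0.08, edgeR adjusted p = 0.327). Cdk1, the catalytic partner, had 8868, 8425 and 9176 in 5F at day 0 and 8685, 8322 and 8001 in the libraries labelled day 4. Its 7E libraries had 7847, 7451 and 8162 at day 0 and 8220.0, 7951 and 7254 at day 4. The groups overlapped in both clones, with 95% intervals of the log2 difference of -0.17 to 0.01 in 5F and -0.10 to 0.10 in 7E. Ccna2, which acts in S phase and at mitotic entry, was lower by a small amount, with -0.14 in both clones and edgeR adjusted p = 0.0329 in 5F and 0.0127 in 7E. Without replicate 3 these rose to 0.421 and 0.0934 (edgeR adjusted p), and without replicate 1 to 0.200 and 0.187.

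The mitotic kinases Plk1 and Aurka were not among the lower mRNAs. Plk1, the Polo kinase of mitotic entry and spindle assembly, had 3251, 3757 and 3386 normalised counts in 5F at day 0 and 3884, 3948 and 4093 in the libraries labelled day 4, all 3 of the latter higher (log2 difference 0.20, SE 0.05, edgeR adjusted p = 0.00809). In 7E the counts were 3621, 3829.6 and 3647 and 3912, 3662 and 4180.4, and the groups overlapped (log2 difference 0.08, SE 0.05, edgeR adjusted p = 0.219). Aurka, the Aurora kinase of the spindle poles, had 5578, 6198 and 6069 in 5F at day 0 and 6399, 6236 and 6363 in the libraries labelled day 4. Aurka counts in 7E were 5383, 5371 and 5554 at day 0 and 6002, 5786 and 5674 at day 4. Its libraries did not overlap within either clone, yet neither difference was called, with edgeR adjusted p = 0.171 and 0.0908.

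Within the chromosomal passenger complex, which corrects faulty spindle attachments, the kinase moved and its partners did not pass the test. Aurkb, the kinase, had 2845, 2938 and 2882 normalised counts in 5F at day 0 and 2429, 2289.5 and 2514 in the libraries labelled day 4 (log2 difference -0.26, SE 0.05, edgeR adjusted p = 0.000479). Clone 7E had 2783, 2754 and 2868 and 2400.5, 2330.4 and 2403 (log2 difference -0.24, SE 0.05, edgeR adjusted p = 0.000506). Both clones showed 3 lower libraries with no overlap. Its scaffold Incenp had log2 differences of 0.01 in 5F and -0.02 in 7E. The corresponding values were 0.08 and 0.04 for Cdca8, the borealin subunit, and -0.07 and -0.02 for Birc5. None of these 6 differences was called.

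Of the spindle checkpoint genes, Bub1b and Ttk were lower in both clones and Bub1 was not called. Bub1b encodes BUBR1, a part of the inhibitor that holds back CDC20. Its normalised counts in 5F were 11814, 11717 and 12049.5 at day 0 and 10499, 10221 and 10275 in the libraries labelled day 4 (log2 difference -0.20, SE 0.04, edgeR adjusted p = 0.00140). In 7E they were 11449, 10986 and 11616 and 9209, 9012 and 8892 (log2 difference -0.33, SE 0.04, edgeR adjusted p = 2.21e-06). The groups were apart in both clones. Ttk, the MPS1 kinase that starts the checkpoint, differed by -0.16 in 5F (edgeR adjusted p = 0.0216) and -0.15 in 7E (edgeR adjusted p = 0.0216). Without replicate 3 its edgeR adjusted p was 0.251 in 5F and 0.0980 in 7E, and without replicate 1 it was 0.239 and 0.305.

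Bub1, a checkpoint kinase at the kinetochore, had 6538, 6082 and 6648 in 5F at day 0 and 6822, 7134 and 6489.6 in the libraries labelled day 4. In 7E its counts were 5826, 5258 and 5651 at day 0 and 5987, 6264 and 5687 at day 4. Both pairs of groups overlapped, and the differences of 0.09 and 0.10 were not called (edgeR adjusted p = 0.209 and 0.121). Cdc20, the APC/C activator, had 10881, 11752 and 11308 in 5F at day 0 and 10670.5, 9746 and 10911 in the libraries labelled day 4. In 7E it had 9426, 10260.4 and 9968 and 10663, 9761 and 10816. Its point estimates had opposite signs, -0.12 in 5F and 0.08 in 7E. Neither was called, nor was the difference between them (log2 difference 0.19, SE 0.07, edgeR adjusted p = 0.0825). Ube2c differed by -0.04 in both clones and was not called.

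At the kinetochore the subunits of one complex were not all called, and differences between subunits were not tested. The NDC80 complex, which grips microtubules, consists of Ndc80, Nuf2, Spc24 and Spc25. The mean of Nuf2 went from 2955 to 2747 in 5F without overlap and from 5118 to 4670 in 7E with overlap. Neither decrease of Nuf2 was called. Spc25 was lower in both clones, by -0.21 in 5F (edgeR adjusted p = 0.00825) and -0.15 in 7E (edgeR adjusted p = 0.0443). Both calls were lost without replicate 1 (edgeR adjusted p = 0.119 and 0.134) and without replicate 3 (0.204 and 0.447), and in 7E also by DESeq2 (adjusted p = 0.0612). Spc24 was lower in 7E, with 1559.5, 1599 and 1569 normalised counts at day 0 and 1421, 1368 and 1410.0 at day 4 (log2 difference -0.17, SE 0.05, edgeR adjusted p = 0.0148). In 5F, where its counts were 1659.9, 1733 and 1645 and 1645, 1589 and 1615, the difference of -0.06 was not called. Ndc80 had 2663, 2498 and 2799 in 5F at day 0 and 2775, 2946 and 2561 in the libraries labelled day 4, which overlapped and were not called. In 7E its counts were 2729.8, 2656 and 2873 at day 0 and 3182, 3337 and 2869.7 at day 4 (log2 difference 0.18, SE 0.06, edgeR adjusted p = 0.0112), with 1 library of each group in the range of the other. That increase turned into -0.91 with own spike-in scaling. Without replicate 1 or 2 the 7E calls of Spc24 (edgeR adjusted p = 0.0898 and 0.0909) and Ndc80 (0.141 and 0.174) were lost.

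Cenpe, which carries chromosomes along microtubules, had 8473, 7582 and 8164 normalised counts in 5F at day 0 and 9326, 9802 and 8902 in the libraries labelled day 4, all higher (log2 difference 0.21, SE 0.05, edgeR adjusted p = 0.00340). In 7E it had 8258, 7612 and 7671 and 8835, 9449 and 8175, which overlapped (log2 difference 0.17, SE 0.05, edgeR adjusted p = 0.0122). The 7E difference was -0.93 with own spike-in scaling, and without replicate 2 it was not called (edgeR adjusted p = 0.183). In 5F the call was lost with own spike-in scaling. The other kinetochore members, Cenpf, Ska1 and Ska3, lay between -0.09 and 0.07 in the 2 clones, with none called.

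Of 5 genes of cytokinesis, 4 were higher at day 4 than at day 0 in clone 7E relative to the median gene, and with own spike-in scaling all 5 were lower. Anln, the anillin that scaffolds the contractile ring, had 7484, 7304 and 7620.2 normalised counts at day 0 and 9881, 10062 and 9624 at day 4, every day 4 library above every day 0 library (log2 difference 0.40, SE 0.04, edgeR adjusted p = 1.12e-07). In 5F it had 7649, 7480.3 and 7505 at day 0 and 7739, 8037 and 7408 in the libraries labelled day 4, which overlapped (log2 difference 0.03, SE 0.04, edgeR adjusted p = 0.613). Tested directly over the 12 mock libraries, the change in 7E exceeded that in 5F (log2 difference 0.37, SE 0.06, edgeR adjusted p = 9.92e-05), and Anln was the 1 member called in that test, where 6.65% of 17209 genes were higher and 5.29% lower. With own spike-in scaling its 7E change was -0.70 and its difference between clones -0.67, against median-gene shifts of -1.11 and -1.03.

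Prc1, which bundles the midzone microtubules, had 6727, 6377 and 6750.1 in 7E at day 0 and 8083, 8226 and 7227 at day 4, without overlap (log2 difference 0.25, SE 0.05, edgeR adjusted p = 0.000435). Ect2, the exchange factor that activates RhoA at the cleavage furrow, had 8403, 8070.5 and 8394 and 9490.4, 10137 and 9487, again without overlap (log2 difference 0.23, SE 0.05, edgeR adjusted p = 0.000302). Kif23, the centralspindlin kinesin, had 5140.0, 4678 and 4971 and 5554, 5636 and 5301 (log2 difference 0.16, SE 0.05, edgeR adjusted p = 0.0124). Without replicate 1 or 2 Kif23 was not called (edgeR adjusted p = 0.0703 and 0.139). These 3 increases stood at -0.85, -0.87 and -0.94 with own spike-in scaling. The fifth gene, Kif20a, a midzone kinesin, differed by 0.10 and was not called (edgeR adjusted p = 0.0911). In 5F the log2 differences were 0.07 for Prc1, 0.10 for Ect2, -0.01 for Kif23 and -0.04 for Kif20a, with none called. Except for Anln, the difference between the clones was not called for these genes, with edgeR adjusted p from 0.0959 to 0.213.

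The spindle motor Kif11, which pushes spindle poles apart, had 11933, 10999 and 12123 normalised counts in 5F at day 0 and 12428, 12726 and 11577 in the libraries labelled day 4. Its counts in 7E were 11874, 11215 and 11832 and 12441, 13093 and 11372. Both sets overlapped, with 95% intervals of -0.03 to 0.16 and -0.02 to 0.18 on the log2 scale. Tpx2, the activator of Aurora kinase A on the spindle, differed by -0.12 in 5F (edgeR adjusted p = 0.0625) and 0.02 in 7E.

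Top2a had 46691, 43636 and 46185 normalised counts in 5F at day 0 and 49628, 51369 and 47016 in the libraries labelled day 4, and 42661, 39272 and 41456 and 43496, 44583 and 40623 in 7E. The 5F groups were apart but not called (edgeR adjusted p = 0.0692), and the 7E groups overlapped. Mki67, which coats mitotic chromosomes and is a common marker of dividing cells, had 12864, 12182 and 11900.4 in 5F at day 0 and 13382, 14356 and 13748 in the libraries labelled day 4 (log2 difference 0.17, SE 0.05, edgeR adjusted p = 0.00972). In 7E its counts of 13964, 13416 and 12596 and 14208, 14006 and 13588 overlapped and were not called (log2 difference 0.06, SE 0.05, edgeR adjusted p = 0.291).

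Some calls rested on single libraries. In 5F, without replicate 1 or without replicate 3, 5 members were lower instead of 8, and without replicate 3, 1 was higher instead of 3. In 7E, 10 were higher without replicate 3 and 4 were lower without replicate 1. The decreases of Esco2, Bub1b, Ccnb2 and Aurkb in both clones, and the increase of Anln in 7E, passed the test under each of the left-out replicates.

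**Figure D2:**
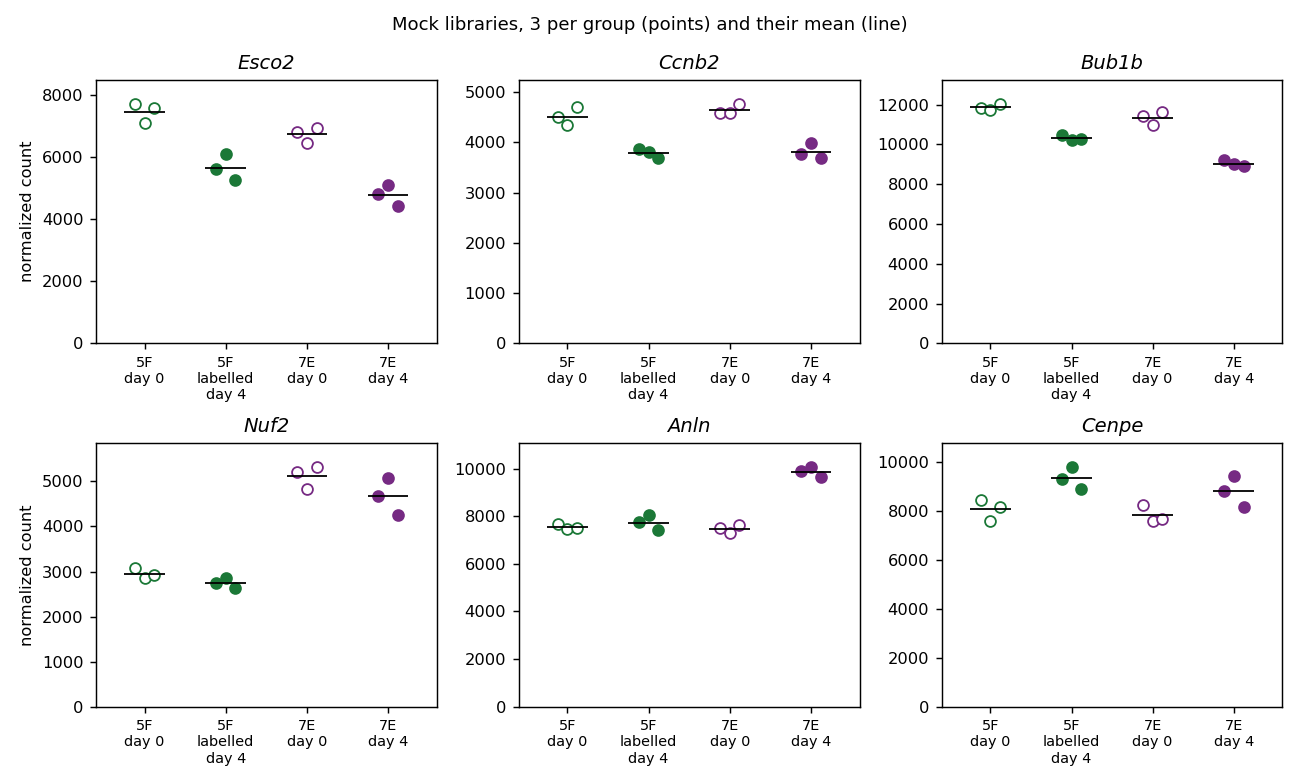
Normalised counts of 6 mRNAs in the 12 mock libraries, with points for libraries, lines for group means and the axis starting at 0, scaled to the median gene. Esco2, Ccnb2 and Bub1b lie lower with 4OHT in both clones. The mean of Nuf2 is 2955 in 5F and 5118 in 7E at day 0, Anln is at 9624 or more at day 4 of 7E and lower elsewhere, and Cenpe is a little higher with 4OHT. With own spike-in scaling the 7E changes of Anln and Cenpe turn negative.

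Before 4OHT the 2 clones differed more often, mostly with lower levels in clone 7E. That clone was Aven-/- and also had less Skiv2l (log2 difference -2.10, SE 0.05, edgeR adjusted p = 1.06e-19), whose part was not tested. Of 33 members, 4 were higher in 7E than in 5F and 14 were lower, where 20.0% of 16299 genes were higher and 19.7% lower. The median was -0.09 against -0.01 over all genes, and 25 of 33 values were negative. With replicate numbers as a block, though the labels give no pairing, 5 were higher and 18 lower, and all 18 of the unblocked calls were among them. With own spike-in scaling 1 member was higher and 25 lower, with the median gene shifted by -0.17. Primitive endoderm markers moved with clone as well, from at least 127 CPM to at most 13.7 CPM, and their part in these differences was not tested. Day 0 libraries are the same as in the comparisons above, so their errors are shared.

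Nuf2 stood apart from the other members. It had 3068, 2865 and 2932 normalised counts in 5F and 5208, 4826 and 5319.9 in 7E at day 0, with no overlap (log2 difference 0.79, SE 0.05, edgeR adjusted p = 1.17e-12). Libraries with 4OHT kept the gap, with 2749.8, 2849 and 2643 in 5F and 4669, 5087 and 4253 in 7E. Its partners in the same complex showed no such gap, since Ndc80 differed by 0.05, Spc24 by -0.09 and Spc25 by -0.11, none called. The other members higher in 7E were Cenpf (log2 difference 0.15), a large kinetochore protein, Ska3 (0.13) and Mki67 (0.11), and these 3 turned to -0.01, -0.03 and -0.05 with own spike-in scaling.

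The decreases in 7E took in APC/C factors, checkpoint and cytokinesis genes. Ube2c, which starts ubiquitin chains on cyclin B, had 4302, 4491 and 4522 in 5F and 3535, 3818 and 3711 in 7E (log2 difference -0.27, SE 0.04, edgeR adjusted p = 1.83e-05). Kif20a had 12661, 12509 and 13042 and 10493, 10259 and 11149 (log2 difference -0.26, SE 0.04, edgeR adjusted p = 1.49e-05). Both pairs were apart. Bub1 differed by -0.20 and Cdc20 by -0.19, followed by Birc5 and Ect2 at -0.18 each and Cdk1 at -0.17, with edgeR adjusted p from 0.000650 to 0.00240. The smallest called decrease was that of Ccnb1 at -0.11 (edgeR adjusted p = 0.0478). Without replicate 3, 8 members were lower instead of 14, and 2 were higher. Aurka, Ccnb1, Esco2, Kif23, Prc1 and Top2a each lost the call without at least 1 of the replicates, as did Ska3 and Mki67 among those higher (edgeR adjusted p up to 0.345).

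After transcription stopped, the members' mRNAs fell at different rates. Counts were brought to 1 scale across times with the spike-ins, and a half-life was taken from the slope of the log count on time over all libraries of a clone and day. In 5F at day 0 the 33 half-lives had a median of 235 min against 280.4 min over 10492 mRNAs, and 22 of 33 members decayed faster than that median. The medians in the 5F libraries labelled day 4, in 7E at day 0 and in 7E at day 4 were 241, 266 and 246 min, against 282, 283 and 283 min over all mRNAs. Of the 33 members, 6 were in the fastest 25% of mRNAs in 5F at day 0 and 1 in the fastest 10%. These values depend on the scaling, because without the spike-in factor the 5F day 0 median was 970.2 min.

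The 5 shortest half-lives in 5F at day 0 belonged to Ska3, Aurka, Esco2, Ccnb1 and Plk1. Ska3, which links the kinetochore to moving microtubule ends, had 109 min, with a range of 1 SE of the slope of 106 to 112 min. Aurka had 136 min (126 to 149 min) and Esco2 140.2 min (137 to 143 min). Ccnb1 had 158 min (153 to 164 min) and Plk1 169 min (153 to 189.8 min). The ranges of Ska3 and Aurka do not meet, while those of Aurka and Esco2 do. At the other end stood Spc24 with 556 min (518 to 599 min), Bub1 with 486 min (438 to 547 min) and Birc5 with 452 min (377 to 563 min). Ccnb2 followed with 429.5 min (387 to 482 min) and Bub1b with 401 min (363 to 449 min). The B-type cyclins were on opposite ends, as were the NDC80 subunits Spc24 and Spc25, the latter with 172 min.

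After 360 min in 5F at day 0, 9.81% ± 1.30 (SD, n = 3) of the mock level of Ska3 was left and 63.7% ± 3.83 (SD, n = 3) of Spc24. The members' median was 34.2% against 40.4% over all mRNAs. Decay was quicker in the first 120 min than later for 30 of 33 members in 5F at day 0, and over all mRNAs for 92.3%. The members' median half-life was 166 min over the first 120 min and 313 min from 120 to 360 min, against 164 and 442 min over all mRNAs. Mki67, Esco2 and Ccnb1 were the 3 that did not slow down. Birc5 slowed most, from 163 min early to 2537 min late.

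**Figure D3:**
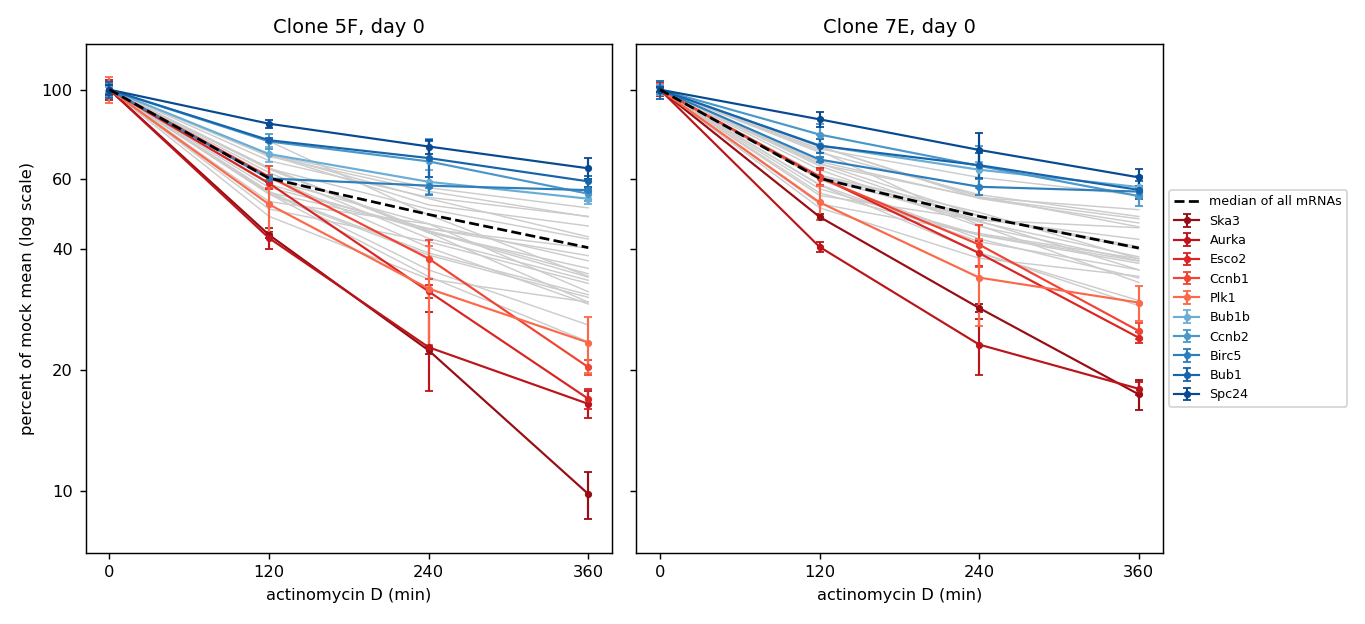
Percent of the mock mean left after actinomycin D at day 0 in clones 5F and 7E, on a log scale, with SD over libraries for the 5 members of shortest (red) and longest (blue) half-life in 5F, the other 23 in grey, and the median of all mRNAs as a dashed line. At 360 min Ska3 is at 9.81% in 5F and 17.4% in 7E, and Spc24 is at 63.7% and 60.4%.

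The parts after the stop codon of members and other mRNAs were searched for TGTANATA, the element that Pumilio proteins bind. Gencode M21 gave a transcript of matching length for 30 members among 6694 mRNAs. On the transcript strand TGTANATA was in 13 of 30 members (43.3%) against 26.3% of all. The members' sequences there were shorter, at a median of 562.5 bases against 1006.5. Within a middle class of that length, with a median of 928 bases for its 15 members and 914 for all 2338 of its mRNAs, it was in 8 members (53.3%) against 22.1%. It was in 3 of the 5 members with the shortest half-lives and 0 of the 5 with the longest, whose sequences were shorter still, with medians of 928 and 272 bases. The AU-rich pentamer ATTTA was in 66.7% of members against 67.6%. TGTANATA was also in members with longer half-lives in 5F at day 0, such as Kif11 (226 min), Cenpf (292 min) and Top2a (342 min). Only the sites in Ska3, Esco2 and Ccnb1 are shown, with 8 bases on each side (GRCm38) and the element in capitals.
Ska3, chr14:57806583-57806606, minus strand: gttgttatTGTACATAatgtaaaa
Esco2, chr14:65819853-65819876, minus strand: tgtgcacaTGTACATActagtttt
Ccnb1, chr13:100779613-100779636, minus strand: gtgccgccTGTACATAggatacct
Ccnb1, chr13:100779440-100779463, minus strand: ccaactaaTGTATATAtctgtagc
They begin 936 bases after the stop codon in Ska3, 98 in Esco2, and 50 and 223 in Ccnb1. Aurka and Plk1, also among the 5 shortest, held no match. Whether Pumilio proteins bind these mRNAs was not measured.

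Decay rates of the members did not change detectably with 4OHT. In 5F, 0 of 33 members passed the edgeR test of a changed slope, where 0.134% of 17901 genes had slower decay and 0.0670% faster decay in the libraries labelled day 4. The slope differences lay between -0.04 and 0.04 log2 units per hour, with a median SE of 0.03, and 1 member, Esco2, had an unadjusted p under 0.05. In 7E, 0 of 33 passed, where 0.436% of 17417 genes decayed slower at day 4 and 0.551% faster, and the values lay between -0.06 and 0.02. Of these, 27 of 33 were negative, which is faster decay at day 4, while 48.7% of all genes were positive. Values were also negative for 45 of 68 further G2/M genes and 27 of 36 S-phase genes, and for 8 of 19 G2/M transcription regulators. The largest among the members was Ect2, at -0.06 log2 units per hour with a 95% interval of -0.11 to -0.02 (edgeR adjusted p = 0.300). Again 1 member had an unadjusted p under 0.05. DESeq2 and limma also called 0 members in either clone. For the difference between the clones, 0 members and 0 of 18623 genes passed in edgeR, with 493 genes and 0 members at an unadjusted p under 0.05.

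Between the clones at day 0, 2 members decayed more slowly in 7E and none faster. They were Ska3 and Esco2, where 0.0338% of 17766 genes decayed more slowly and 0.00563% faster, so that 2 of the 7 genes called were members. The 1 gene called faster was Aven itself, the gene knocked out in 7E (-0.32 log2 units per hour, edgeR adjusted p = 0.00689). Ska3 had 3156, 3019.8 and 3040.5 normalised counts in 5F mock libraries, then 1319 and 1349 at 120 min, 673, 699 and 690.0 at 240 min and 324, 325 and 255 at 360 min. In 7E it began at 3423, 3223 and 3459 and had 1657, 1597 and 1613 at 120 min, 959, 985 and 941 at 240 min and 585, 636 and 536 at 360 min. The 7E libraries were higher than the 5F libraries at each time without overlap. The slope differed by 0.13 log2 units per hour (SE 0.02, edgeR adjusted p = 0.00689), and the half-life was 109 min in 5F and 144 min in 7E. Ska3 overlaps Sap18 on the other strand, and reads were counted without strand. How reads in the overlap were assigned was not examined. Sap18 itself differed in slope by 0.05, which was not called.

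Esco2 had 7719, 7100.4 and 7576 in 5F mock libraries, then 4467 and 4259 at 120 min, 2256, 2438 and 2334 at 240 min and 1263, 1338 and 1195 at 360 min. In 7E it began lower, at 6804, 6458 and 6937, and had 4006, 3927 and 4324 at 120 min, 2437, 2813 and 2650.1 at 240 min and 1631, 1664 and 1567 at 360 min. Its libraries overlapped at 120 and 240 min, and at 360 min all 7E libraries were above all 5F libraries. The slope differed by 0.09 log2 units per hour (SE 0.01, edgeR adjusted p = 0.00689), with half-lives of 140.2 and 177 min. Both calls were lost without any 1 replicate, without the 360 min libraries and with own spike-in scaling, with slope differences that stayed at or above 0.08 for both genes. In the direction of the whole group, 26 of 33 slopes were positive, with a median of 0.03 against 0.00 over all genes, and half-lives were longer in 7E for 26 of 33. Slopes were also positive for 53 of 68 further G2/M genes and 16 of 19 G2/M transcription regulators, and for 18 of 36 S-phase genes. These genes share libraries and scaling. All members but Ska3 and Esco2 missed the threshold. Skiv2l was lower in 7E than in 5F at day 0 (log2 difference -2.10), and its part in these decay differences was not tested.

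**Figure D4:**
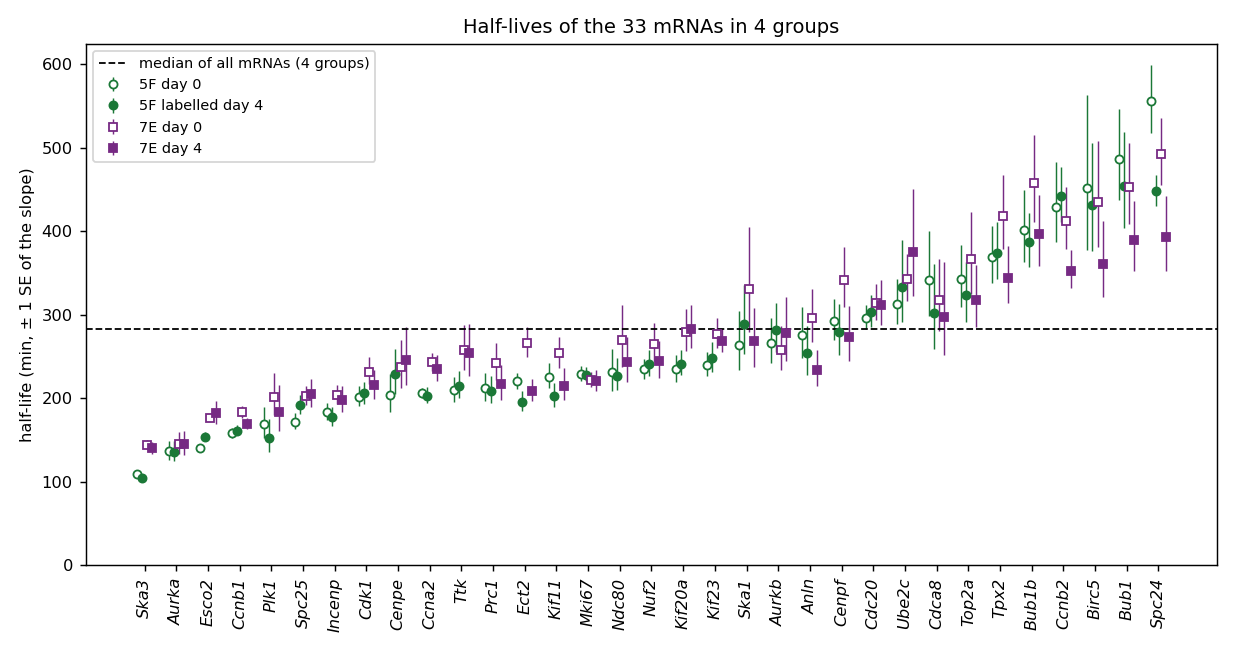
Half-lives in minutes of the 33 mRNAs in 4 groups, ordered by their value in 5F at day 0, with bars of 1 SE of the slope and the median of all mRNAs as a dashed line. The order runs from Ska3 (109 min) to Spc24 (556 min). For 26 of 33 the 7E day 0 value is above the 5F day 0 value.

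The courses of single members in each library show how close the groups were. For Ccnb1 the 5F day 0 libraries had 3801 and 3465 at 120 min, 2126, 2559 and 2120.1 at 240 min and 1275, 1181 and 1193 at 360 min, and the 5F libraries labelled day 4 had 3377, 2795 and 2852 at 120 min, 1853, 1913 and 1899.5 at 240 min and 1063, 947 and 1155 at 360 min. In 7E the day 0 libraries had 3519, 3317 and 3229.5 at 120 min, 2193, 2592 and 2064 at 240 min and 1348, 1462 and 1361 at 360 min, and the day 4 libraries 3291, 2888 and 2766 at 120 min, 1822, 2018 and 1915 at 240 min and 1139.8, 1085 and 1228 at 360 min. Its 5F libraries labelled day 4 were lower than day 0 at each time, as in the mock libraries, while the half-lives were 158 and 161 min. In 7E the day 4 libraries were lower without overlap at 240 and 360 min, and the half-lives were 183 and 169.6 min.

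For Cdk1 the 5F day 0 libraries had 5629.7 and 5063 at 120 min, 3109, 4094 and 3496 at 240 min and 2489.8, 2580.3 and 2659 at 360 min, and those labelled day 4 had 5338, 4856 and 4446 at 120 min, 3180.3, 3529 and 3222 at 240 min and 2444, 2212 and 2757 at 360 min. The 7E day 0 libraries had 4938, 4512 and 4561 at 120 min, 3158, 3585 and 3219 at 240 min and 2486, 2663 and 2808 at 360 min, and the day 4 libraries 5080.5, 4278 and 4104 at 120 min, 2927, 3258 and 3049 at 240 min and 2366, 2222 and 2757 at 360 min. Day 0 and day 4 overlapped at all 3 times in both clones. Its half-lives were 202, 206, 232 and 215 min in the same order, so that it outlasted Ccnb1 in each group.

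Plk1 had 1599.8 and 1986 at 120 min, 1341, 758 and 1217 at 240 min and 916, 849 and 668 at 360 min in 5F at day 0, and 1080.3, 1769 and 1904 at 120 min, 1104, 1093 and 1154 at 240 min and 839.8, 933 and 477 at 360 min in the libraries labelled day 4. In 7E it had 1722, 2048 and 2040.2 at 120 min, 1533, 926 and 1314 at 240 min and 1205, 1075 and 988 at 360 min at day 0, and 1149.9, 1813 and 2004 at 120 min, 1285, 1133 and 1292 at 240 min and 1061, 1107 and 720.4 at 360 min at day 4. After actinomycin D all day 0 and day 4 groups overlapped, and replicates spread, for instance 39.9% ± 11.1 (SD, n = 3) of the mock mean at 120 min in the 5F libraries labelled day 4.

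Aurka had 2425 and 2648 at 120 min, 1500.0, 1008 and 1558 at 240 min and 1009.6, 1034 and 893 at 360 min in 5F at day 0, and 1847, 2503 and 2611 at 120 min, 1495, 1375 and 1555 at 240 min and 1053, 1081 and 756 at 360 min in the libraries labelled day 4. In 7E the counts were 2177, 2269.5 and 2164 at 120 min, 1340.3, 1027 and 1406 at 240 min and 1016, 968 and 944 at 360 min at day 0, and 1722, 2415 and 2459 at 120 min, 1455, 1339 and 1418 at 240 min and 1104, 1054 and 843 at 360 min at day 4. The groups overlapped by day at every time after actinomycin D, and half-lives of 136, 136, 145 and 145 min lay close together.

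Bub1 had 4840.0 and 4770.0 at 120 min, 3868, 4733 and 4409 at 240 min and 3657, 3822 and 3901 at 360 min in 5F at day 0, and 5899, 5217 and 4852 at 120 min, 4558, 4479 and 4268 at 240 min and 3993, 3391 and 4468 at 360 min in the libraries labelled day 4. Its 7E libraries had 4158, 3862 and 4112 at 120 min, 3369, 3877 and 3603 at 240 min and 2949, 3214 and 3249.7 at 360 min at day 0, and 4959, 4566 and 3996 at 120 min, 3544, 3788 and 3507 at 240 min and 3129.6, 2824 and 3553 at 360 min at day 4. The 5F libraries labelled day 4 were higher than day 0 at 120 min, and the other groups overlapped by day. More than 50% of the mock level was left at 360 min in each of the 4 groups, and the highest was 59.1% ± 1.93 (SD, n = 3) in 5F at day 0.

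Cdc20 had 7884 and 7726 at 120 min, 6214, 6114 and 5833 at 240 min and 5007, 4648 and 4927 at 360 min in 5F at day 0, and 6829, 7009 and 7417 at 120 min, 5377, 5758 and 5638 at 240 min and 4332, 4840.2 and 4423 at 360 min in the libraries labelled day 4. For 7E the values were 7357, 7350.4 and 6652 at 120 min, 5631, 5593 and 4829 at 240 min and 4435, 4368 and 4686 at 360 min at day 0, and 6660.0, 6743 and 7089.5 at 120 min, 5311, 5775 and 5862 at 240 min and 4072, 4964 and 4689.7 at 360 min at day 4. In 5F the libraries labelled day 4 were lower than day 0 without overlap at 120 and 240 min, and elsewhere the groups overlapped by day. Half-lives were between 296 and 314 min.

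Kif11 had 7459 and 7058 at 120 min, 4356, 5518 and 5048 at 240 min and 3725, 4038 and 3969.9 at 360 min in 5F at day 0, and 7588, 6884 and 6303 at 120 min, 4749, 4688 and 4475 at 240 min and 3762, 3072 and 3872 at 360 min in the libraries labelled day 4. Its 7E libraries had 7461, 7189 and 7409 at 120 min, 4798, 5859.5 and 5266 at 240 min and 4011, 4522 and 4537 at 360 min at day 0, and 7454, 6849 and 6281 at 120 min, 4525, 4815 and 4710.5 at 240 min and 3986, 3318 and 4288 at 360 min at day 4. By day the groups overlapped at each time, with half-lives of 226 and 202 min in 5F and 254 and 215 min in 7E.

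Ndc80 had 1365 and 1309.5 at 120 min, 945, 1265 and 1113 at 240 min and 857, 870.1 and 889 at 360 min in 5F at day 0, and 1764, 1558 and 1426 at 120 min, 1210.1, 1218 and 1142 at 240 min and 894, 769.6 and 1032 at 360 min in the libraries labelled day 4. The 7E counts were 1469, 1373 and 1446 at 120 min, 1105, 1294 and 1218 at 240 min and 967, 1070.4 and 1090.2 at 360 min at day 0, and 2086, 1784 and 1548 at 120 min, 1246, 1428 and 1294 at 240 min and 1156, 957 and 1221 at 360 min at day 4. At 120 min the 4OHT libraries were higher than day 0 in both clones without overlap, and at 240 and 360 min they overlapped.

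Top2a had 30985 and 29536 at 120 min, 21768, 27058 and 24735 at 240 min and 21069, 22087 and 22781 at 360 min in 5F at day 0, and 36145, 31914 and 29369 at 120 min, 26158, 26753 and 24792 at 240 min and 23137, 19768 and 25052 at 360 min in the libraries labelled day 4. Clone 7E had 27683, 26120.1 and 26663 at 120 min, 20238, 24039.5 and 22140.0 at 240 min and 18609, 21515 and 21821 at 360 min at day 0, and 30639, 27313 and 24758 at 120 min, 21108, 22462 and 21325 at 240 min and 19585, 17310.4 and 21555 at 360 min at day 4. Groups overlapped by day at each time after actinomycin D, and between 45.4% ± 4.95 and 50.2% ± 4.31 (SD, n = 3) of the mock level was left at 360 min.

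Mki67 had 9456 and 8868 at 120 min, 5983, 5705 and 6310.1 at 240 min and 3935, 4500.1 and 4217 at 360 min in 5F at day 0, and 9014, 9587 and 8525 at 120 min, 6893, 6508 and 6465 at 240 min and 4854, 4324 and 4491 at 360 min in the libraries labelled day 4. In 7E it had 8978, 9367 and 9825 at 120 min, 5816, 5785 and 6757 at 240 min and 4280.5, 4346 and 4588 at 360 min at day 0, and 7997, 9126 and 8130.4 at 120 min, 6218, 5901 and 5556 at 240 min and 4878, 4246 and 4299 at 360 min at day 4. Half-lives of 229, 228, 222 and 221 min were found in the 4 groups. After actinomycin D the libraries overlapped by day except in 5F at 240 min, where those labelled day 4 were higher.

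In relative CRAC binding these mRNAs had higher SKIV2L shares than the table as a whole. Among mRNAs of at least 50 RPKM, a set not matched to them in level, their median was the lower one. For each mRNA the deposited shares of SKIV2L, of the 5′–3′ exonuclease XRN1 and of the nuclear exosome helicase MTR4 add up to 1, so a higher share of one lowers the others. The members' median SKIV2L share was 0.395 against 0.267 over 7240 mRNAs, and all 33 members were above 0.267, with 16 in the top 25% and 5 in the top 10%. The 36 S-phase genes had a median of 0.410, with 20 in the top 25% and 7 in the top 10%. For 62 further G2/M genes the median was 0.314, with 9 and 4. SKIV2L had the highest of the 3 shares in 19 of 33 members (57.6%), against 26.5% of all mRNAs. The XRN1 share had a median of 0.323 against 0.337, and the MTR4 share 0.276 against 0.319. The separate AVEN ratio had a median of 0.285 against 0.295.

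The comparison depends on level. Among the 1795 mRNAs with at least 50 RPKM, a limit chosen after the data were seen, the members' median SKIV2L share of 0.395 was below the median of 0.415 and 11 of 31 members were above it. For MTR4 the order turned as well, with 26 of 31 members above the median of 0.231, against 8 of 33 above that of the whole table. That set reached higher levels than the members, with upper quartiles of 169 and 130 RPKM. In classes of level the median SKIV2L share was 0.352 near 58.3 RPKM, 0.405 near 94.1 RPKM and 0.497 near 226 RPKM. The members' shares spread around these class medians. The values were pooled by the authors and have no replicate error, and the number of reads behind them is unknown.

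Within the group, SKIV2L shares ran from 0.280 for Cenpf to 0.593 for Spc24. Spc24 had XRN1 and MTR4 shares of 0.108 and 0.299. Cdc20 had 0.591 for SKIV2L, 0.139 for XRN1 and 0.270 for MTR4. Kif20a, Plk1 and Ndc80 followed with SKIV2L shares of 0.571, 0.535 and 0.525. In contrast XRN1 had the highest share for Ccnb1 (0.483, with SKIV2L at 0.295), Nuf2 (0.481) and Aurka (0.448). MTR4 had the highest share for Mki67 (0.481), whose AVEN ratio of 0.583 was matched by Cdc20 at 0.583. In clone 7E at day 4, where Skiv2l fell, the 5 mRNAs with the highest SKIV2L shares had mock log2 differences of -0.17 (Spc24), 0.08 (Cdc20), 0.10 (Kif20a), 0.08 (Plk1) and 0.18 (Ndc80). Spc24 was called lower and Ndc80 higher, and none of the 5 passed the test of a changed slope. The shares came from other lines that were not Aven knockouts. Per the study, SKIV2L bound a different set of mRNAs without AVEN, so the shares need not hold in 7E.

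**Figure D5:**
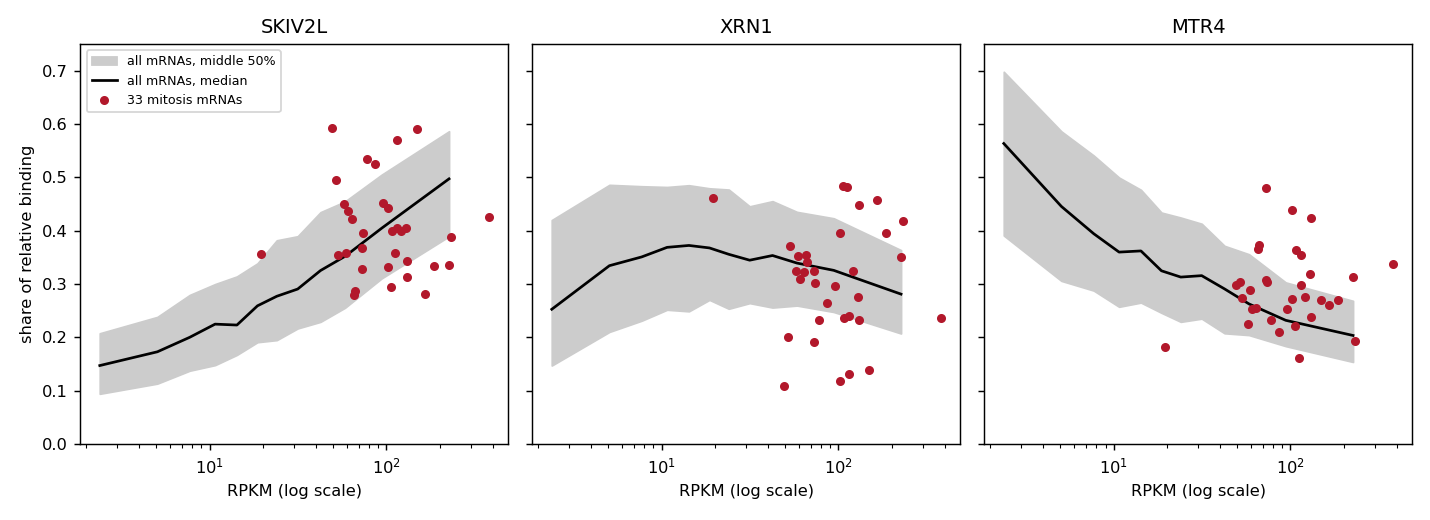
Deposited shares of relative CRAC binding of SKIV2L, XRN1 and MTR4 against RPKM (log scale), with red points for the 33 mRNAs, a black line for the median and grey for the middle 50% of all mRNAs in 12 classes of level. The members lie to the right, where the median SKIV2L share rises with level, and their SKIV2L shares spread from 0.280 to 0.593 around it.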

How the data were processed

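Per the labels and the study's methods, reads of 50 nt were aligned to mm10 with STAR and uniquely mapped reads were counted per gene without strand. The deposited half-life table holds these raw counts for 47 libraries, with 92 ERCC spike-ins, and no column was left unassigned. The binding table of the authors holds a ratio per mRNA for each factor, pooled over replicates, and RPKM of 3 tagged lines. Its columns of fold changes and adjusted p-values were not used. The members, lists and tests were chosen with earlier results of these data known.

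Counts were divided by DESeq2 1.42.0 size factors computed within each time point and by 1 spike-in factor per time (1, 0.657, 0.538 and 0.441), from 34 spike-ins with a mean count over 50. Mock levels, decay slopes (time by day or clone) and their differences between clones were tested with the edgeR 4.0.16 quasi-likelihood test in R 4.3.3 on all genes passing filterByExpr, with Benjamini-Hochberg adjustment and a threshold of 0.05. Intervals are 1.96 SE. Half-lives are ln 2 over the slope of ln(normalised count + 1), described without a test, and percentages of all mRNAs use those with a mean mock count of at least 100. In each comparison every member past the threshold was counted and up to 8 with the largest change named, and 10 core members were given in every library. The scripts were tested on simulated data. Alternatives were own spike-in scaling, TMM, DESeq2, limma 3.58.1, no filter, the replicate block, other samples and times, and leaving out replicates. Replicate libraries differed by at least 2.59 in chi-square per gene, so none was a duplicate. Same-numbered mock libraries of 5F and 7E at day 0 deviated together (correlations 0.240 to 0.497), while those of day 0 and day 4 did not (-0.452 to -0.029). Other matchings of the libraries were not compared, so whether they were paired is not known. After actinomycin D, same-numbered day 0 and day 4 libraries had correlations of -0.321 to 0.674. Each was over 0.1 in 5F at 120 min (2 pairs) and 240 min and not in the other 4 sets. At 120 min the highest was replicate 1 (0.578 in 5F and 0.656 in 7E). At 240 min it was replicate 2 (0.637 and 0.674), and at 360 min replicate 3 (0.610 and 0.548). The main decay tests were not paired. Neither they nor the replicate block modelled deviations that a replicate shares at 1 time. Further genes overlap a member on the other strand (Exosc9 for Ccna2, Elovl1 for Cdc20, Cdc23 for Kif20a, Tnnc2 for Ube2c, Rccd1 for Prc1, 9930104L06Rik for Cdca8). How reads in these overlaps were assigned in the unstranded counts was not examined.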

Additional observations from a re-analysis of the deposited data

Results flagged for a closer look

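Anln differed between the clones in its change with 4OHT, by 0.37 on the log2 scale (edgeR adjusted p = 9.92e-05 over 17209 genes). It was higher in 7E at day 4 in 3 of 3 libraries and overlapped in 5F. With own spike-in scaling the difference was -0.67, against a median-gene shift of -1.03.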

How the results depend on the processing

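With own spike-in scaling, the median gene moved by -0.07 in the 5F change, -1.11 in the 7E change, -0.17 between clones and -1.03 in the difference of changes. Members called higher and lower then numbered 0 and 10 in 5F, 0 and 33 in 7E, 1 and 25 between clones, and 0 and 33 in the difference. Directions of members called higher turned to lower for Cenpe (-0.93), Kif23 (-0.94), Ndc80 (-0.91), Prc1 (-0.85), Anln (-0.70) and Ect2 (-0.87) in 7E, for Cenpf (-0.011), Ska3 (-0.028) and Mki67 (-0.048) between clones, and for Anln (-0.67) in the difference. All 19 members with a positive value in 7E and all 20 in the difference were then called lower, among them, of the 10 core members not called before, Aurka (-0.9998), Bub1 (-0.998), Cdc20 (-1.02), Plk1 (-1.01), Kif11 (-1.02), Top2a (-1.04) and Mki67 (-1.03) in 7E, and Aurka (-1.02), Bub1 (-1.02), Ccnb1 (-0.91), Cdc20 (-0.84), Cdk1 (-0.95), Kif11 (-1.02) and Ndc80 (-0.91) in the difference. Over all settings, a further 69 values of core or called members changed sign without passing the test. The slower decay of Ska3 and Esco2 in 7E was then called for 0 members, as it was without the 360 min libraries, and for 1 without the mock libraries. Without a filter, 2 members were higher in the difference of changes, with Cdc20 added. The median half-life in 7E at day 4 was 269.9 min with own spike-ins. Without a spike-in factor the 4 medians were 970.2, 1044, 1766 and 1145 min, and without mock libraries 313, 305, 377 and 360.3 min (5F day 0, 5F labelled day 4, 7E day 0, 7E day 4). Among mRNAs of at least 50 RPKM, a limit added after seeing the data, 11 members were above the median SKIV2L share. The cause of these changes was not tested.

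Leaving out 1 replicate number gave 1 to 4 higher and 5 to 11 lower members in 5F, 4 to 10 and 4 to 9 in 7E, 2 to 4 and 8 to 14 between clones, 1 and 0 in the difference, and 0 for slower decay between clones. Median half-lives ranged over 228 to 239.5, 232 to 247, 256 to 281 and 233 to 269 min. With the replicate block, 2 members were higher and 6 lower in 5F, 6 and 6 in 7E, 5 and 18 between clones and 1 and 0 in the difference, with 2 for decay between clones and 0 for decay by day in either clone. TMM, DESeq2 and limma kept each count within 1.5 times. Depth limits little here, since each member had at least 567 counts per library.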

Other observations

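Other cell cycle genes are given by their counts, where 12.8% of all genes were higher and 11.6% lower in 5F and 20.7% and 19.4% in 7E. Of 68 further G2/M genes, 3 were higher and 13 lower with 4OHT in 5F, and 9 and 18 in 7E. The 36 S-phase genes had 2 higher and 16 lower in 5F and 3 and 17 in 7E, with a median of -0.14 on the log2 scale in 7E. Of 15 APC/C subunits, 0 were higher and 3 lower in 5F, and 0 and 1 in 7E. The 19 regulators of G2/M transcription had 0 higher and 4 lower in 5F and 0 and 8 in 7E. E2f2, an activating E2F, was the lowest of them, at -0.56 (5F) and -0.82 (7E). E2f2 and the genes named next were chosen after their values were seen.

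Of 10 G1 genes, 2 were higher and 3 lower in 5F, and 2 and 4 in 7E. Cdkn1a, the p21 inhibitor of cyclin-dependent kinases, was higher by 0.44 in 5F and 1.29 in 7E. Ccnd2, cyclin D2, was lower by -0.27 in 5F and -1.23 in 7E. For both, the clones' changes differed directly, by 0.84 for Cdkn1a (edgeR adjusted p = 0.000712) and -0.96 for Ccnd2 (edgeR adjusted p = 2.00e-09). These values are relative to the median gene. Between the clones at day 0, the counts higher and lower in 7E were 19 and 13 of the further G2/M genes, 10 and 4 of the transcription regulators and 7 and 11 of the S-phase genes, where 20.0% and 19.7% of all genes were.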
